A study of Homo sapiens with 12 samples.

Results

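The genes described here are 10 brakes on growth: the inhibitors of cyclin-dependent kinases CDKN1A, CDKN1B, CDKN2C and CDKN2D, and GADD45A, GADD45B, MDM2, BTG1, BTG2 and SESN1, several of them known targets of p53. They were followed in L-540, an established Hodgkin lymphoma cell line, on Illumina bead arrays. Members were chosen by symbol: every probe whose gene in the platform annotation is one of the 10 was taken, 13 probes of 48803 on the array. These probes name 8 of the 10 genes; CDKN2C and BTG2 have no probe named in the annotation used and were not analysed here. Probes entered the tests if, in 1 group or more, all 3 arrays had a detection p (the chance of such a signal without target RNA) below 0.05. That left 9 member probes and 7 genes to test, out of 8079 genes tested in all. GADD45B was not tested, because its probe was detected on 0 of 12 arrays.

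There were 4 groups of 3 arrays, each exposed for 24 h: control cells without drug, cells with 100 nM givinostat, an inhibitor of histone deacetylases, cells with 5 µM sorafenib, an inhibitor of several kinases, and cells with both drugs at these doses, called the combination. All 4 groups are the same cell line, so each value describes a single line, and in RNA from bulk cells a lower share of a cell type and less RNA per cell cannot be told apart. Arrays carry the letters A, B and C, and no label states that these were separate cultures, so p-values measure only the spread between these arrays, which may be technical.

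A cell commits to dividing when cyclins switch on their kinases, which inactivate RB and release E2F factors. The CIP/KIP proteins p21 (CDKN1A) and p27 (CDKN1B) block cyclin and kinase complexes, and the INK4 proteins encoded by CDKN2C and CDKN2D bind CDK4 and CDK6. When p53 is stabilised after damage or stress it switches on CDKN1A, GADD45A, BTG2 and SESN1, and also MDM2, the ubiquitin ligase that returns p53 to a low level; CDKN1A, GADD45A and the sestrins can also be switched on without p53. In lymphocytes BTG1 and BTG2 are known as keepers of quiescence, which recruit the deadenylase complex that shortens messenger RNA tails.

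The promoter windows of BTG1, the member that passed the test, and of CDKN1A, the best known brake, are shown as the DNA behind these readouts. They run from 250 bases before to 50 bases after the RefSeq start site, on GRCh38.p14, and capitals mark the motifs searched on both strands: the GC box GGGCGG, the forkhead motif TGTTTAC and the C/EBP-ATF composite TGATGNAA. The CDKN1A window lies at chr6:36678464-36678763 on the plus strand and the BTG1 window at chr12:92145797-92146096 on the minus strand.
CDKN1A: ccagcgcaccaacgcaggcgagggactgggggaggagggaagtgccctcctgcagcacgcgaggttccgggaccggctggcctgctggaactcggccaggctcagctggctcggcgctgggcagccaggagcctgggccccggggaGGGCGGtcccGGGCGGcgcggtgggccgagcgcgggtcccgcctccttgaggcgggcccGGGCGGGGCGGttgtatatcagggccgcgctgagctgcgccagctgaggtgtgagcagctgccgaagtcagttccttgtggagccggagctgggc
BTG1: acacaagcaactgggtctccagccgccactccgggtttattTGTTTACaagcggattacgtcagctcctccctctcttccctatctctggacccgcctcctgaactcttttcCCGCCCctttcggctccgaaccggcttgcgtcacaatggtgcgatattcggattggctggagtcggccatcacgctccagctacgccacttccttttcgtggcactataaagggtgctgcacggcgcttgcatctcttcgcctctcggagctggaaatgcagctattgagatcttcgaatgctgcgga

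CDKN1A held 4 GC boxes in this window, 2 of which overlap by a base in the last run of capitals, and no forkhead or composite match. BTG1 held 1 GC box and 1 forkhead match, which begins 209 bases before the start. The GC box occurs in 45% of all 35116 RefSeq promoter windows of this length, the forkhead motif in 3.42% and the composite in 3.62%. Of the 9 members with a window (GADD45A has no entry), 8 held a GC box in at least 1 window and 1, BTG1, a forkhead match. The p53 half-site, searched by its consensus with no mismatch allowed, was found for 1 member, SESN1, and in 6.63% of all windows. Sites with a mismatch or outside these windows were not counted, so no match does not mean that a member lacks a p53 site. These matches are descriptions of letters, not of binding.

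The median raw intensity was 418.1 to 579.3 on 11 arrays and 681.1 on combination B, and the share of probes detected was 22.4% on combination B and 24.6% to 30.9% on the others. Of 10 Hodgkin markers, 6 were detected on all 12 arrays, TNFRSF8 (CD30) among them, and 1, CCL22, on none. Of the markers of other cell types, the 4 epithelial ones were detected on none, while BLK of the B cell list and CSF1R of the monocyte list were detected on all 12, FCGR3A on 9, and PECAM1 and COL3A1 on 5. Values below are log2 intensities after background correction and quantile normalization, with log2 changes ± standard error (SE), n = 3 arrays per group, and limma's p adjusted over all 8079 genes; a gene was called at an adjusted p under 0.05. Levels are not compared between genes, because different probes have different brightness.

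**Figure D1:**
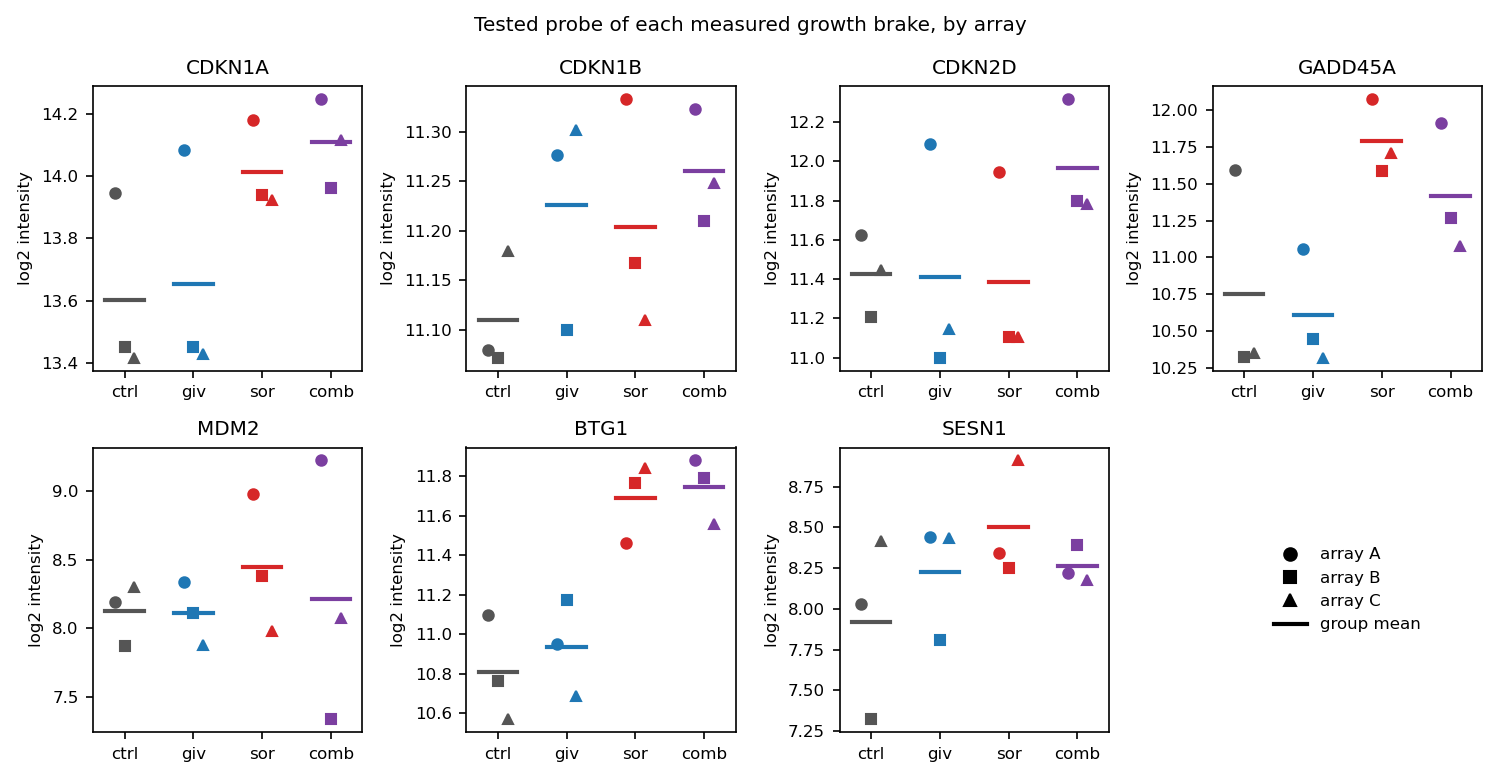
Normalized log2 intensity (y axis, one scale per panel, not starting at 0) of the tested probe of each of the 7 measured members in the 12 arrays, by group (x axis: control, givinostat, sorafenib, combination); marker shape gives the letter and the bar the group mean. The 6 BTG1 values with sorafenib present lie above the 6 without it, between 11.46 and 11.88, and A arrays are the highest of their group for CDKN1A, CDKN2D and GADD45A.

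BTG1, which slows cell division in lymphoid cells, rose with sorafenib alone and with the combination. In control it read 11.10, 10.76 and 10.57 on arrays A, B and C, and with givinostat 10.95, 11.17 and 10.69. With sorafenib it read 11.46, 11.76 and 11.84, and in the combination 11.88, 11.79 and 11.56. Neither sorafenib-treated group overlapped control or givinostat, while control and givinostat overlapped each other.

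The increase of BTG1 over control was 0.88 ± 0.18 with sorafenib, or 1.84-fold (limma adjusted p = 0.0322), and 0.93 ± 0.18 in the combination, or 1.91-fold (limma adjusted p = 0.0149). With givinostat alone the change was 0.13 ± 0.18 (adjusted p = 0.822). Between the combination and sorafenib alone it differed by 0.05 ± 0.18, with a 95% interval from -0.34 to 0.45, and the interaction of the drugs was -0.07 ± 0.26 (adjusted p = 0.988). Against givinostat the combination was 0.81 ± 0.18 higher, which did not pass (adjusted p = 0.0516). Ordered by mean, the groups ran control, givinostat, sorafenib, combination, and only the step from givinostat to sorafenib separates groups that do not overlap.

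BTG1 was the single member called against control in each of these 2 comparisons, 1 of 7 in both. Across all genes 3.38% were called with sorafenib and 6.99% in the combination. The call with sorafenib is close to the threshold: it was lost without control B (adjusted p = 0.101), control C (0.121), sorafenib B (0.0911) or sorafenib C (0.106), and that in the combination without control B (0.0584) or control C (0.0619). With array median scaling in place of quantile normalization the changes were 0.88 and 0.61 (adjusted p = 0.433 and 0.385). Under that scaling the median of all genes in the combination was -0.29, against -0.02 as reported.

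**Figure D2:**
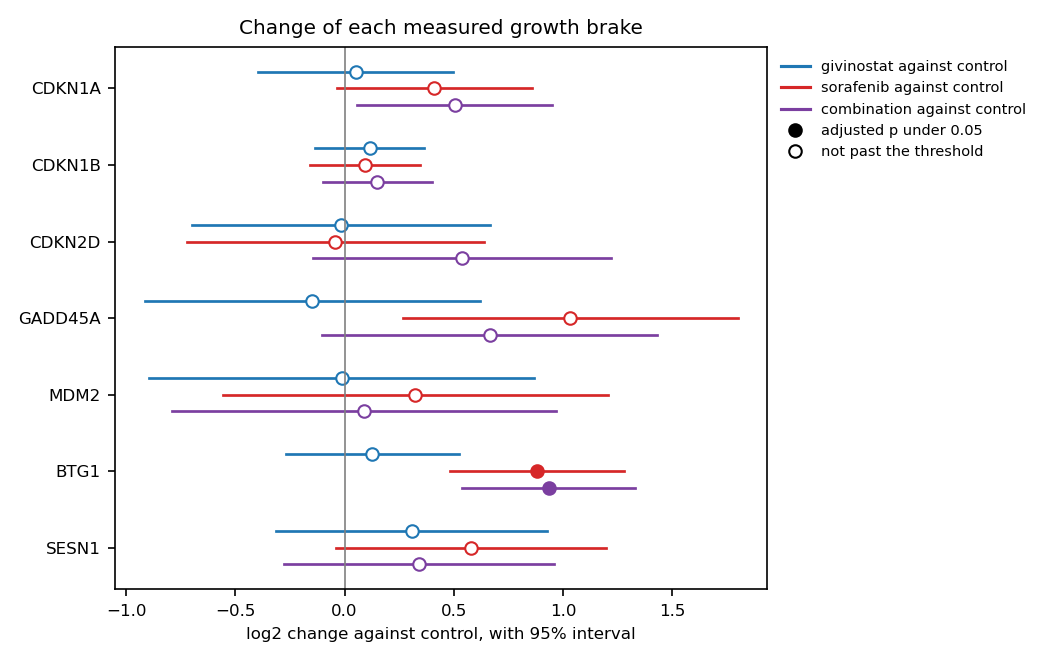
Log2 change against control (x axis) of the 7 tested members with givinostat, sorafenib and the combination; lines are 95% intervals from limma with n = 3 arrays per group, and filled points have an adjusted p under 0.05. The 2 filled points are BTG1 with sorafenib, 0.88, and with the combination, 0.93.

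CDKN1A encodes p21, the CDK inhibitor that p53 induces. Its tested probe read 13.94, 13.45 and 13.42 in control and 14.08, 13.45 and 13.43 with givinostat, for arrays A, B and C. With sorafenib it read 14.18, 13.94 and 13.92, and in the combination 14.25, 13.96 and 14.12. Control A and givinostat A were high beside the B and C arrays of the same groups, and the combination was the only treated group with all 3 arrays above control.

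The CDKN1A differences from control were 0.05 ± 0.20 with givinostat (adjusted p = 0.95), 0.41 ± 0.20 with sorafenib (adjusted p = 0.297) and 0.50 ± 0.20 in the combination (adjusted p = 0.157). None passed. Within each letter sorafenib was higher than control, by 0.24 in A, 0.49 in B and 0.51 in C. The letters were taken to pair the arrays of control, givinostat and sorafenib, as same-letter deviations from the group means correlate (r = 0.177 to 0.408). No label states this pairing. With the letter as a block in these 9 arrays the sorafenib difference had an adjusted p of 0.0763.

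A second CDKN1A probe gave another picture for givinostat. It read 8.57, 7.84 and 8.06 in control and 9.26, 8.45 and 8.99 with givinostat, higher in every letter, by 0.70, 0.60 and 0.93. In the fit of every kept probe over the 12 arrays the difference was 0.74 ± 0.49 (adjusted p = 0.617). With the letter as a block in the 9 arrays, a fit chosen after these values were seen, it was 0.74 ± 0.11 (adjusted p = 0.0401), and 0.907% of the 11801 kept probes were called for givinostat in that fit. The tested probe differed by 0.05 in the same fit (adjusted p = 0.87), so the call rests on 1 of the 2 probes.

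The 2 CDKN1A probes correlated at r = 0.36 over the 12 arrays, and at 0.62 without combination B. On combination B the second probe read 7.03 and was not detected, against 9.23 and 9.01 on combination A and C. The annotation used lists a different RefSeq transcript of CDKN1A for each probe. Whether either probe also reads other transcripts was not determined. The part of probe or array quality in the difference was not tested.

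**Figure D3:**
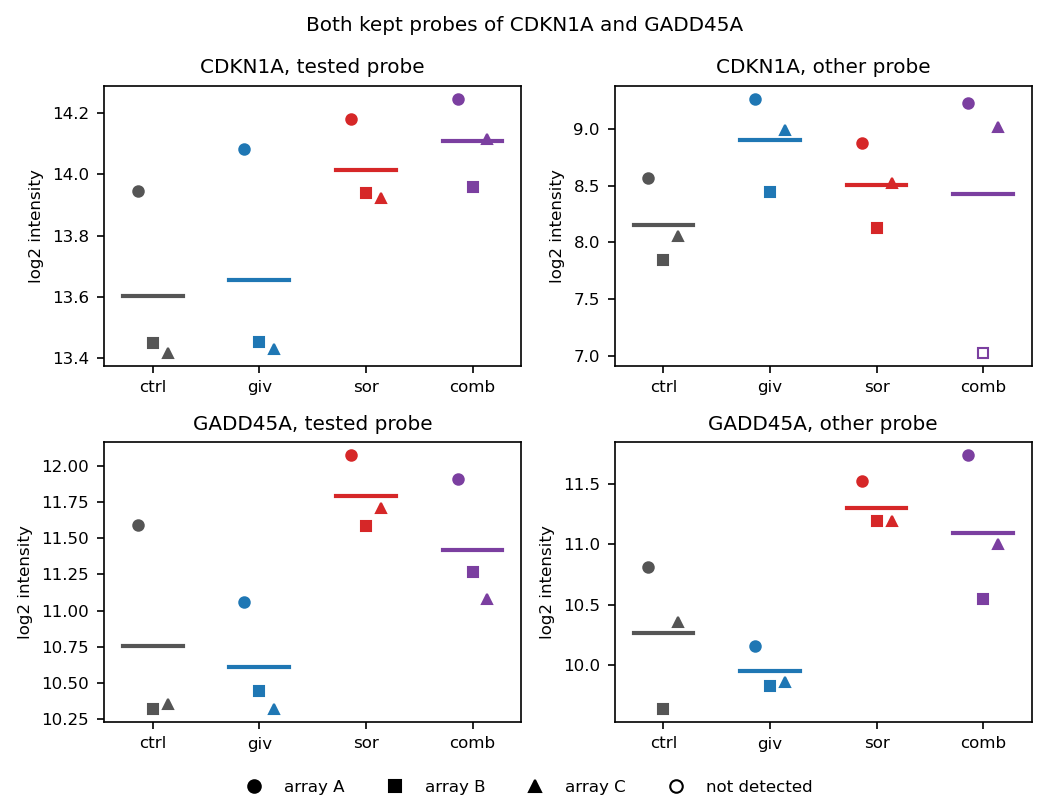
Normalized log2 intensity (y axis, one scale per panel, not starting at 0) by group (x axis) of both kept probes of CDKN1A and of GADD45A; marker shape is the letter, bars are group means and an open marker is an array where the probe was not detected. The second CDKN1A probe reads 8.45 to 9.26 with givinostat against 7.84 to 8.57 in control, and 7.03 on combination B; both GADD45A probes are highest in mean with sorafenib.

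CDKN1B encodes p27, which holds resting cells out of the cycle and is regulated largely by protein breakdown. It was nearly flat, from 11.07 to 11.18 in control, 11.10 to 11.30 with givinostat, 11.11 to 11.33 with sorafenib and 11.21 to 11.32 in the combination. The combination lay above control without overlap, at 0.15 ± 0.11 (adjusted p = 0.452), which did not pass, and with array median scaling the difference was -0.17. A second CDKN1B probe was detected on 4 of 12 arrays and was not kept.

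CDKN2D, an INK4 inhibitor of CDK4 and CDK6, read 11.63, 11.21 and 11.45 in control and 12.32, 11.80 and 11.78 in the combination, for A, B and C. With givinostat it read 12.09, 10.999 and 11.15, and with sorafenib 11.95, 11.11 and 11.10, so with each single drug the A array lay above the control range and B and C below it. The A array was the highest in every group. The combination differed by 0.54 ± 0.31 from control (adjusted p = 0.325) and by 0.58 ± 0.31 from sorafenib (adjusted p = 0.399), with an interaction of 0.60 ± 0.44 (adjusted p = 0.898). None passed.

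All 3 combination arrays lay above all 3 control arrays for 4 of the 7 members, CDKN1A, CDKN1B, CDKN2D and BTG1, where 14.6% of all genes did so. The margin was narrow for CDKN1A, with 13.96 on the lowest combination array and 13.94 on the highest control array. It was also narrow for CDKN1B, with 11.21 and 11.18. The second CDKN1A probe overlapped control. With sorafenib this held for 1 of 7, BTG1, against 13.3% of all genes. At an unadjusted p under 0.05, 2 of 7 members were higher with sorafenib and 2 of 7 in the combination, where 19.9% and 24% of all genes passed in either direction.

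GADD45A, a stress sensor that binds p21 and can hold cells before mitosis, had the largest difference of any member with sorafenib. It read 11.59, 10.32 and 10.35 in control, and 12.07, 11.58 and 11.71 with sorafenib, for A, B and C. Givinostat gave 11.06, 10.45 and 10.32 and the combination 11.91, 11.27 and 11.08. Control A stood more than 1 log2 unit above the other control arrays and overlapped both groups with sorafenib.

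The GADD45A difference with sorafenib was 1.03 ± 0.35, or 2.05-fold, and did not pass (adjusted p = 0.132). With the letter as a block it passed, at an adjusted p of 0.0215 in the 9 arrays of control and the single drugs and 0.0112 in all 12, fits in which 8.84% and 8.74% of all genes were called. Among the fits that left out 1 array it passed only without control A, at 1.45 (adjusted p = 0.0395). Without control C the limma adjusted p was 0.347. The within-letter differences were 0.48 in A, 1.26 in B and 1.35 in C.

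The second GADD45A probe moved by the same amount with sorafenib, 1.03 ± 0.32 (adjusted p = 0.125), and the 2 probes correlated at r = 0.91 over the 12 arrays. It read 10.81, 9.64 and 10.36 in control and 11.52, 11.20 and 11.19 with sorafenib, without overlap. In the fit of every kept probe with the block it passed (adjusted p = 0.0287), as 6.85% of kept probes did for sorafenib. In the combination the tested probe was 0.66 ± 0.35 above control (adjusted p = 0.276), and givinostat differed by -0.15 ± 0.35 (adjusted p = 0.908).

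GADD45B, a relative induced by cytokines and NF-kB, gave log2 values of 5.38 to 6.22 with detection p of 0.265 or more on all 12 arrays. No change can be read from it.

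MDM2, the ligase that limits p53 and is itself a p53 target, read 8.19, 7.87 and 8.30 in control and 8.98, 8.38 and 7.98 with sorafenib. In the combination it read 9.22, 7.34 and 8.07, the widest spread of any tested member group, with an SD of 0.95. The differences from control were -0.01 ± 0.40 with givinostat (adjusted p = 0.992), 0.32 ± 0.40 with sorafenib (adjusted p = 0.717) and 0.09 ± 0.40 in the combination (adjusted p = 0.925). The combination's difference was 0.53 without combination B (limma adjusted p = 0.434) and -0.42 without combination A (limma adjusted p = 0.454). A second MDM2 probe was detected on 0 of 12 arrays.

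SESN1, a sestrin that restrains growth signalling through mTORC1, read 8.03, 7.32 and 8.41 in control and 8.34, 8.25 and 8.91 with sorafenib. It was higher in every letter with sorafenib, by 0.31, 0.93 and 0.50, and the difference of 0.58 ± 0.28 did not pass (adjusted p = 0.286; 0.0681 with the letter as a block in the 9 arrays). Givinostat differed by 0.31 ± 0.28 (adjusted p = 0.716) and the combination by 0.34 ± 0.28 (adjusted p = 0.493).

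Givinostat alone called 0 of the 7 members in limma, and 0 passed an unadjusted p under 0.05; across all genes 0.0866% were called and 12.9% had an unadjusted p under 0.05. The median member difference was 0.05 with givinostat, 0.41 with sorafenib and 0.50 in the combination, where the median over all genes was between -0.02 and 0.00. The 3 comparisons share the control arrays.

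The combination was next set against each drug alone. Against givinostat, 0 of 7 members were called by limma, where 1.68% of all genes were, and 3 of 7 (CDKN1A, GADD45A and BTG1) were higher at an unadjusted p under 0.05, against 19.9% of all genes in either direction. GADD45A was 0.81 ± 0.35 higher (adjusted p = 0.231) and CDKN1A 0.45 ± 0.20 (adjusted p = 0.246). Against sorafenib 0 of 7 were called and 0 of 7 had an unadjusted p under 0.05, where 0.359% and 15.6% of all genes did. For the interaction both counts were again 0 of 7, against 0% and 5.85% of all genes.

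Lists of the surrounding pathway place the members among their partners. Besides BTG1, the BTG and TOB family with its deadenylase partners had 6 tested genes, none of which was called in any comparison. Of the 4 tested CDK inhibitors, CDKN3 being the one that is no member, 0 were called in any comparison. The same held for the 2 tested genes of the GADD45 family, the 2 tested sestrins, the 9 tested genes of p53 and its regulators, and the 7 tested RB and E2F factors. Across all genes the share called ran from 0% in the interaction to 6.99% in the combination against control, so 0 calls in lists this small say little.

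Of 30 other p53 targets, 16 were tested, of which 13 were detected on all 12 arrays; the other 3 passed the filter through the groups where they were detected. With sorafenib 0 of 16 were called by limma, 7 had an unadjusted p under 0.05, all of them higher, and 15 of 16 differences were above 0 with a median of 0.47. Across all genes 3.38% were called, 19.9% had an unadjusted p under 0.05 and 50.03% were above 0. The list was chosen with earlier results of these data known, so these counts are a description, not a test of the list. TP53I3 was detected on 3 sorafenib arrays, 1 control array, 0 givinostat arrays and 0 combination arrays. It passed the filter only through sorafenib, which favoured a rise there, and it is counted in the 7, the 15 and the median. Among the targets detected on every array of both groups, RRM2B, a subunit of ribonucleotide reductase, differed by 0.98 ± 0.25 (adjusted p = 0.0604) and ZMAT3 by 0.80 ± 0.27 (adjusted p = 0.137); these 2 did not pass and were chosen after their values were seen. In the combination 11 of 16 were above 0 with a median of 0.23, where 47.0% of all genes lay above 0. With givinostat 3 of 16 were above 0 with a median of -0.12, where 49.98% of all genes were. In either comparison 0 of 16 were called, where 6.99% and 0.0866% of all genes were. Set against sorafenib, the combination had 2 of 16 differences above 0 with a median of -0.33, where 46.9% of all genes lay above 0. Before adjustment 6 of the 16 were lower and 1 was higher with limma p below 0.05, where 15.6% of all genes passed. TP53I3 is among the 6, and 0 of 16 were called, where 0.359% of all genes were.

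BLOC1S2, of the same list, was higher in the combination than with givinostat, by 1.11 ± 0.20 or 2.15-fold (limma adjusted p = 0.0226). Its mean was 7.12 with givinostat and 8.23 in the combination, with 7.79 in control and 8.32 with sorafenib. The givinostat mean thus lay below control, and the combination differed from sorafenib by -0.09 ± 0.20 (limma adjusted p = 0.868). BLOC1S2 was the 1 of 16 called in the combination against givinostat, where 1.68% of all genes were. That call was lost without givinostat B or C, without combination A or B, with array median scaling (adjusted p = 0.178), without the filter on dim probes (0.0667) and with only the 2 groups in the fit (0.0713).

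**Figure D4:**
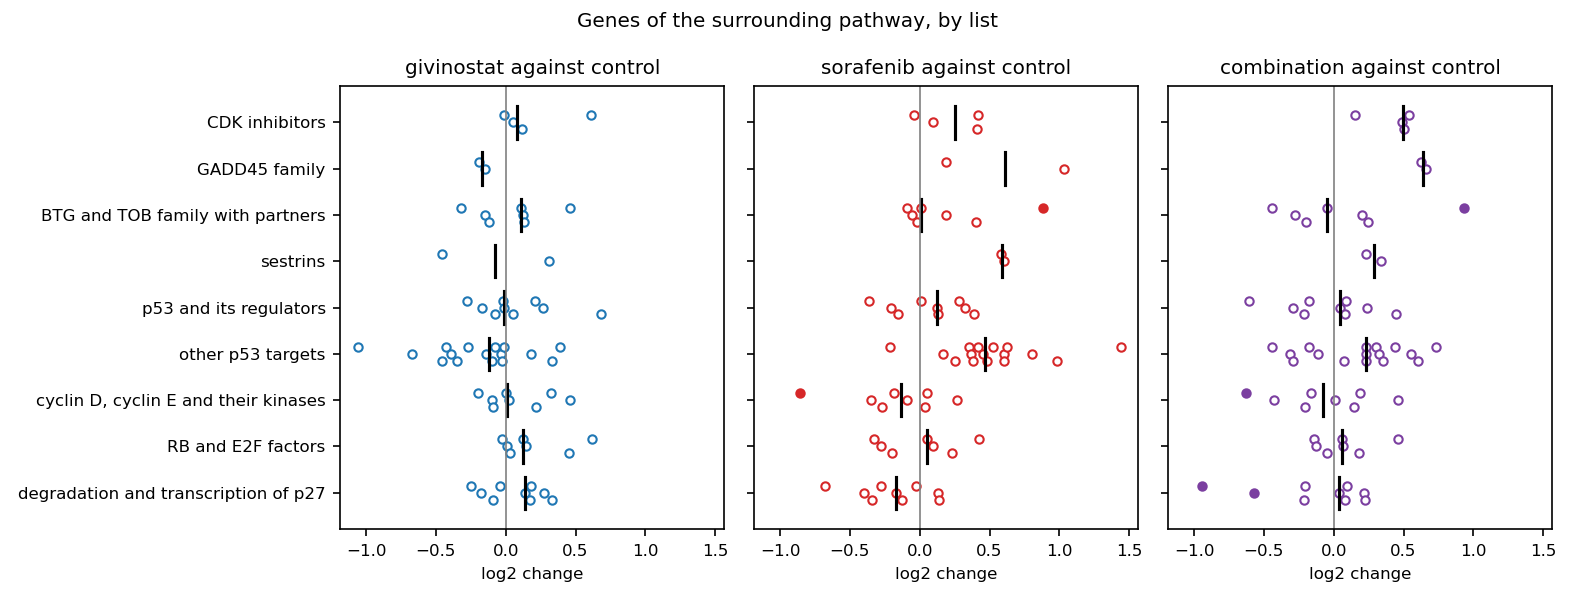
Log2 change against control (x axis, the same in all panels) of each tested gene of the 9 pathway lists (rows) with givinostat, sorafenib and the combination; filled points have an adjusted p under 0.05 and the black bar is the list's median. The other p53 targets have a median of -0.12, 0.47 and 0.23 in the 3 panels, and the filled points are BTG1, CDC25A, SKP2 and RBX1.

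On the side that drives the cycle, CDC25A, the phosphatase that activates CDK2, fell with sorafenib and in the combination. It read 10.89, 10.97 and 10.99 in control, 10.10, 10.19 and 9.98 with sorafenib, and 10.30, 10.31 and 10.34 in the combination, for A, B and C. Its change was -0.86 ± 0.11 with sorafenib (adjusted p = 0.00418) and -0.63 ± 0.11 in the combination (adjusted p = 0.0104), without overlap with control in either. CDC25A was the 1 called gene of 8 tested in the list of cyclins D and E with their kinases. That list also holds CDC25A itself and CDC37, which are neither cyclins nor their kinases, so no cyclin or kinase of it was called in these 2 comparisons. The list's median was -0.14 with sorafenib and -0.08 in the combination, where 3.38% and 6.99% of all genes were called. Both calls were lost with array median scaling (adjusted p = 0.463 and 0.154) and with only the 2 groups in the fit (0.0516 and 0.0524).

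Of 9 tested genes that break down or transcribe p27, 0 passed with sorafenib, where 3.38% of all genes were called. At an unadjusted p under 0.05, 3 of the 9 were lower with sorafenib, against 19.9% of all genes in either direction. With sorafenib 2 of 9 differences were above 0 with a median of -0.17. In the combination 2 of the 9 fell, where 6.99% of all genes were called. The list as a whole did not fall there, with 5 of 9 differences above 0 and a median of 0.04. SKP2, the receptor that marks p27 for breakdown, fell by 0.57 ± 0.12 on the log2 scale (adjusted p = 0.0238), and RBX1, the ring subunit of the same ligase, fell by 0.94 ± 0.22 (adjusted p = 0.0271). CDKN1B, whose protein they help remove, differed by 0.15 in RNA, as above; protein was not measured. The SKP2 call was lost when any 1 of the combination arrays, control B or control C was left out, and the RBX1 call without control A, control B, combination A or combination C. Array median scaling (adjusted p = 0.181 and 0.0571), no filter on dim probes (0.09 and 0.0763) and only the 2 groups in the fit (0.0764 and 0.079) also ended the SKP2 and RBX1 calls.

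Beside these changes, 8 Hodgkin markers were tested, and their median difference from control was -0.42 with sorafenib and -0.55 in the combination. The median over all genes was 0.00 and -0.02. In each comparison 1 marker was called lower, where 3.38% and 6.99% of all genes were called. TNFRSF8 fell by 0.98 ± 0.20 with sorafenib (adjusted p = 0.0316) and IL2RA fell by 0.92 ± 0.19 in the combination (adjusted p = 0.0209). Other Hodgkin markers lay above 0: TRAF1 was at 0.84 ± 0.49 (adjusted p = 0.38), IRF4 at 0.29 ± 0.26 and FUT4 at 0.02 ± 0.13 with sorafenib, and GATA3 at 0.27 ± 0.14 and FUT4 at 0.10 ± 0.13 in the combination, none past the threshold. Of the tested markers of other cells, FCGR3A was at 0.89 ± 0.31 in the combination (adjusted p = 0.111), CSF1R at 0.40 ± 0.18 (adjusted p = 0.212) and BLK at -0.18 ± 0.19 (adjusted p = 0.608). The part of these markers in the members' values was not tested.

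The genes whose values were most like those of BTG1 over the 12 arrays were TCEA1 (Pearson r = 0.94), ARSG (0.93) and TSEN15 (0.93), out of 8078 others. For CDKN1A they were WIPI1 (r = 0.96), ANXA2R (0.95) and ASNS (0.95). These are the highest of many correlations and the arrays share their treatment groups, so they are given as a description.

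**Figure D5:**
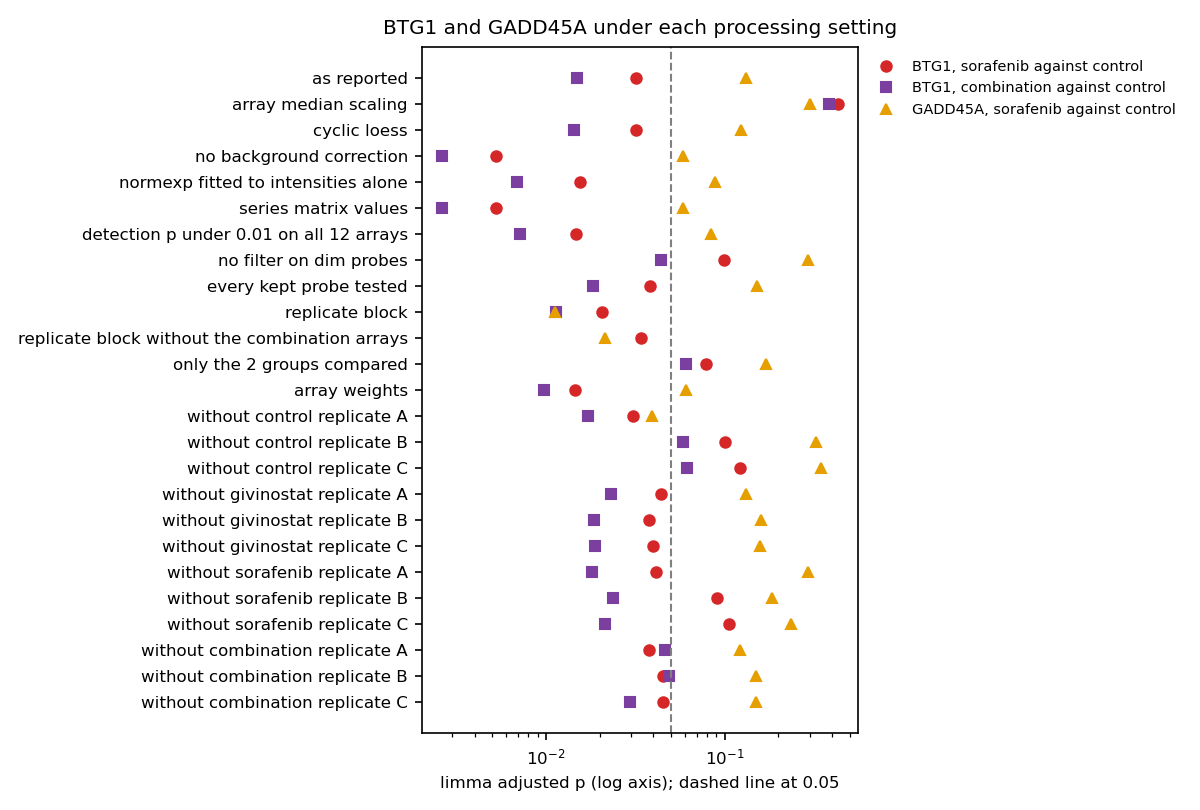
Adjusted p from limma (x axis, log scale) of BTG1 with sorafenib and with the combination and of GADD45A with sorafenib, under each processing setting (rows); the dashed line is at 0.05. BTG1 lies left of the line in 17 of 24 alternative settings with sorafenib and 19 of 23 with the combination, and GADD45A in 3 of 24.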

How the data were processed

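RNA of 12 L-540 samples was measured on bead arrays. Total RNA was turned into biotinylated cRNA by the authors, per the labels' protocols; BeadStudio is named in the submitters' processing notes, without a version. The deposited intensity per probe is linear and neither background-subtracted nor normalized. The deposited column headed as detection p is a fraction between 0 and 1 that rose with intensity on all 12 arrays (Spearman 0.996 or more), and was therefore taken as 1 minus that p. The deposited series matrix holds intensity values that matched quantile normalization of the raw ones; its method is not given in the sources used here.

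Intensities were background corrected with nec of limma 3.58.1 in R 4.3.3 (offset 16), quantile normalized and converted to log2. Of 48803 probes, 28098 had 1 gene symbol in the platform annotation, which can be old, 13 had several and 20692 had none listed; 28059 Entrez identifiers matched RefSeq. The detection filter left 11801 probes, and the brightest per gene gave 8079 genes. lmFit and eBayes were run on the 12 arrays together, a mean for each group leaving 8 residual degrees of freedom, for 6 comparisons including the interaction (the combination's change from control less the sum of the 2 single-drug changes), with Benjamini-Hochberg adjustment over all genes. The number of arrays limits the precision. The fit was tested on simulated data.

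Named are all 10 members, the counts of each pathway list with up to 4 of its genes past the threshold, and the 3 genes most like CDKN1A and BTG1. The members and lists were chosen with earlier results of these data known. Same-letter arrays of control, givinostat and sorafenib deviated together (r = 0.177 to 0.408 over genes, 9 pairs), which was taken as pairing from the data, not the labels; with the combination 4 of 9 pairs exceeded 0.1, and the block is given there only among the alternatives. These were other background corrections, normalizations, filters, probe choices, blocks, samples in the fit, array weights and the series matrix, and each array left out.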

Additional observations from a re-analysis of the deposited data

How the results depend on the processing

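Over 24 alternatives, 49 of 967 member values changed sign, and none of these 49 was called under either setting. The count of members called with sorafenib, 1 as reported, was 0 with array median scaling, 0 without a filter on dim probes (chosen after seeing the data), 0 with only the 2 groups compared in the fit, 2 with the replicate block and 2 with the block without the combination arrays. In the combination against control, 1 as reported, it was 0 with array median scaling, 0 with only the 2 groups and 3 with the replicate block (BTG1, CDKN1A and GADD45A), where 1068 genes were called in all. In the combination against givinostat, 0 as reported, it was 1 (BTG1) without background correction, with normexp on the intensities alone, with the series matrix values and with detection p under 0.01 on all 12 arrays, and 2 with the replicate block (BTG1, adjusted p = 0.0299, and GADD45A, adjusted p = 0.0267, with within-letter differences of 0.85, 0.82 and 0.76), where 590 genes were called. Series matrix and no background correction gave the same BTG1 value and are not independent. The block changed no member call in the other 3 comparisons. Leaving out each array gave 0 to 2 members with sorafenib, 0 to 1 in the combination and 0 to 1 for the combination against givinostat. The cause of these shifts was not tested.

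Counts over all genes ran from 0 to 166 for givinostat (7 as reported), 24 to 714 for sorafenib (273), 96 to 1068 for the combination (565), 5 to 590 against givinostat (136) and 0 to 175 against sorafenib (29). With array median scaling 11 genes rose and 13 fell with sorafenib, and 28 rose and 68 fell in the combination; quantile normalization gave 157 and 116, and 325 and 240.

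With array median scaling these signs turned: CDKN2D 0.082 and MDM2 0.10 with givinostat; CDKN1B -0.17 and MDM2 -0.038 in the combination; CDKN1B -0.39, MDM2 -0.14 and SESN1 -0.33 against givinostat; CDKN1A -0.16, CDKN1B -0.28 and BTG1 -0.27 against sorafenib; CDKN1A -0.29 in the interaction. Under that scaling the median of all genes was -0.39 against givinostat, -0.32 against sorafenib and -0.42 in the interaction, against -0.02 as reported in each. Array weights turned BTG1 against sorafenib to -0.036.

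Leaving out 1 array turned the sign of values near 0. With givinostat CDKN1A ran from -0.17 to 0.22, CDKN2D from -0.36 to 0.19, GADD45A from -0.37 to 0.27 and MDM2 from -0.14 to 0.10. CDKN2D ran from -0.32 to 0.10 with sorafenib, and MDM2 from -0.42 to 0.53 in the combination. Against givinostat CDKN1B ran from -0.029 to 0.071, MDM2 from -0.40 to 0.55 and SESN1 from -0.17 to 0.14. Against sorafenib BTG1 ran from -0.060 to 0.15 and MDM2 from -0.74 to 0.20. In the interaction BTG1 ran from -0.22 to 0.045, CDKN1A from -0.13 to 0.26, CDKN1B from -0.12 to 0.0052, GADD45A from -0.64 to 0.0026 and MDM2 from -0.73 to 0.22.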
